A study of Mus musculus with 12 samples.

Results

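The genes described here are 8 genes of B cells and of MHC class II antigen presentation: Ms4a1, Blk, Cd79a and Cd79b, and H2-Eb1, H2-Ab1, H2-Aa and Cd74. A gene was measured when entries of the deposited count table that overlay its exons alone held 10 or more counts over the 12 libraries together. Of the 8 genes, 3 met this rule (Ms4a1, Blk and H2-Eb1), among 5906 genes of the whole series that met it. The table was counted on exon positions of the mouse build GRCm39, whereas the sample labels name mm10, the GRCm38 build. Every position was therefore read as printed on GRCm38 gene models, and the resulting numbers are called placed counts. The positions under the genes' own symbols lie elsewhere on GRCm38, so their listed entries give no reading of these genes.

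The study asked how PERK, a kinase of the endoplasmic reticulum stress response encoded by Eif2ak3, acts in T cells under different stimuli. Spleen T cells were taken from WT and PERK-cKO mice, the latter on the B6 background with CD4-Cre and PERK fl/fl. The Cre acts in the T cell lineage, so antigen-presenting cells (APCs) added to a culture are not its target. Each genotype was stimulated with allogeneic APCs for 4 days or, for polyclonal stimulation, with antibodies to CD3 and CD28 for 3 days, and each of the 4 groups had 3 libraries. The series text gives these days, whereas a legend of the paper gives the same duration for both stimuli. In its other cultures the allogeneic APCs were splenocytes depleted of T cells. Splenocytes of that kind hold B cells, macrophages and dendritic cells, whereas the polyclonal cultures had no added APCs. The strain of the APCs used for RNA-Seq is not given in the sources used here.

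MHC class II molecules are pairs of an α and a β chain that hold peptides on the surface of B cells, dendritic cells and macrophages, where CD4+ T cells read them. In the mouse H2-Aa and H2-Ab1 encode the pair called I-A, and H2-Eb1 encodes the β chain of the pair called I-E. Cd74 is the invariant chain that guards the groove until peptide is loaded. Ms4a1 encodes CD20, a surface protein of B cells, Blk is a Src family kinase of B cells, and Cd79a and Cd79b are the signalling chains of the B cell receptor. Resting mouse T cells are known to make little or none of these transcripts.

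Class II genes share a control region just before their start, whose Y box is bound by the factor NF-Y. RefSeq promoter windows of GRCm38.p6 were at hand for 3 of the 8 genes (H2-Eb1, H2-Aa and Cd79a) and for 17 of 23 genes of class II loading and control. The Y box core TGATTGG, searched on both strands of the 250 bases before the start, was found in 2 of these 3 genes and in 7 of these 17. It was found in 7.23% of all 32851 promoter windows. The windows around it are shown for 5 class II chain genes read below, each 5′ to 3′ on the gene's own strand, with the Y box core in capitals.
H2-Eb1, chr17:34305766-34305822, plus strand: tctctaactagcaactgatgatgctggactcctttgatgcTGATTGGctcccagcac
H2-Aa, chr17:34287857-34287913, minus strand: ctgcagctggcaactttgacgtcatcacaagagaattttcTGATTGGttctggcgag
H2-DMb1, chr17:34153088-34153144, plus strand: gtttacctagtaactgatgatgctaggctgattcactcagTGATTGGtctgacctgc
H2-DMb2, chr17:34145117-34145173, plus strand: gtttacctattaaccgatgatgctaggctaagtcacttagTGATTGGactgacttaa
H2-Ob, chr17:34238806-34238862, plus strand: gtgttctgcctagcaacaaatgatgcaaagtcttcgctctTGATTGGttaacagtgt
H2-Eb2, also read below, held the core 102 bases before its start and is not shown, and the windows of H2-DMa did not hold it. The Y box core began 61 bases before the start of H2-Eb1 and 50 bases before that of H2-Aa. The Cd79a window held neither this core nor the octamer ATGCAAAT, which was found in 1.6% of all windows on either strand. A match of letters is a description of the window and does not show a bound site.

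H2-Eb1 was read on one coding stretch of 114 bases in its exon 3. The stretch is shown because all placed counts of the gene rest on it. Capitals mark the bases that differ from its closest class II relative, H2-Eb2.
H2-Eb1, chr17:34314170-34314283, plus strand: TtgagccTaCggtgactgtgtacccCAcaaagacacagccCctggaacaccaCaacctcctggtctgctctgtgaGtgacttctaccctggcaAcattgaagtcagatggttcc
In an ungapped comparison 105 of its 114 bases (92.1%) were identical to H2-Eb2, 78 to H2-Ob and 76 to H2-Ab1. The counted entry is 1938 bases long, its counts can include reads from its bases outside exons, and under stricter placement of entries H2-Eb1 had no value.

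The other measured genes were read on longer and more mixed positions. Blk (chromosome 14, 63372836 to 63417037, minus strand) was read on 930 bases in 8 stretches, 673 of them coding and 257 untranslated. Its counted entries are 6051 and 4116 bases long, so most of their bases lie outside Blk exons, and their counts can include reads from there. Ms4a1 (chromosome 19, 11249675 to 11266241, minus strand), whose counted entry is 1518 bases long, was read on 1038 bases. Of these 19 are coding, 672 are untranslated and 347 belong to exons of transcripts annotated as non-coding. Strand was not used in the counting, so transcripts from the opposite strand at the same positions were not separated.

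The 5 genes without placed counts had no entry of their own. H2-Aa (1433 bases) and H2-Ab1 (432 bases) shared 1 entry that overlay no other gene, so they are described as a joint reading. That entry is 6874 bases long, so most of it lies outside these exons, and its counts can include reads from there. Cd79a (1004 bases) shared an entry with Arhgef1, a gene that T cells also use. Cd79b lent 161 bases to an entry that overlay 4 other genes as well. No entry overlay the exons of Cd74.

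Total counts were 3132702 to 4631908 per library, of which 1568431 to 2327503 were placed, so a gene of few counts is known only roughly. The 3 WT allogeneic libraries stood apart: the Y-linked genes Uty, Kdm5d, Ddx3y and Eif2s3y together summed to 3335 to 4716 placed counts in each of them and to 0 in all other libraries. In the allogeneic comparison the genotype and this difference cannot be told apart, nor can the stimulus and this difference in WT libraries, and the interaction holds the same libraries. WT polyclonal replicate 1 also stood apart, at a chi-square per degree of freedom of 54.4 and 61.4 against its replicates, beside 3.88 to 16.1 for all other replicate pairs. Leaving it out changed no call among the measured genes. Eif2ak3, the targeted gene, had 121 to 155 placed counts in PERK-cKO and 167 to 173 in WT libraries after allogeneic stimulation. It had 76 to 116 against 85 to 152 after polyclonal stimulation. Its log2 fold changes were -0.49 (edgeR adjusted p = 0.00759) and -0.36 (adjusted p = 0.171). The transcript was called lower after allogeneic stimulation, was not called after polyclonal stimulation, where the counts overlapped, and was absent from no library. The labels do not say whether the 3 libraries of a group came from separate mice or cultures, so p-values measure only the spread between these libraries. Levels below are CPM, the count scaled to a common library total after TMM scaling. The p-values come from the quasi-likelihood test of edgeR, adjusted by Benjamini-Hochberg over all genes tested, and a gene was called at an adjusted p under 0.05.

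After allogeneic stimulation all 3 measured genes were higher in PERK-cKO than in WT libraries. H2-Eb1 was 8.01-fold higher, Ms4a1 2.50-fold and Blk 1.43-fold, and the joint H2-Aa and H2-Ab1 reading was 5.91-fold higher. All 3 genes passed the filter on low counts in every comparison, but Ms4a1 did not pass it within either polyclonal group by itself. Between the stimuli and in the interaction it thus passed through the allogeneic libraries, where it was high. In the allogeneic comparison each genotype passed it by itself, and all 3 were called here, beside 33.0% of all genes tested in that comparison. In bulk libraries a change in the number of cells of a type and a change in RNA per cell cannot be told apart.

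H2-Eb1 had 730, 518 and 519 counts in the PERK-cKO allogeneic libraries and 48, 57 and 88 in the WT allogeneic libraries. Every PERK-cKO library lay above every WT library. The level was 297 ± 31.4 CPM (SD, n = 3) against 36.8 ± 8.63 CPM (SD, n = 3), a log2 fold change of 3.00 (95% interval 2.70 to 3.31, edgeR adjusted p = 7.28e-14). A second entry, 1407 bases long, overlay H2-Eb1 by 39 bases, too few to be placed. Its counts can include reads from its bases outside exons, so it is no separate check of the gene. It had 47, 42 and 44 counts in PERK-cKO and 12, 6 and 10 in WT allogeneic libraries. It was called, at a log2 fold change of 2.07 (edgeR adjusted p = 3.98e-05), but passed the filter on low counts only through the PERK-cKO libraries.

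The joint H2-Aa and H2-Ab1 entry, called the I-A reading below, overlay exons of both I-A chains and a longer stretch outside exons. It had 8499, 6805 and 5478 counts in PERK-cKO allogeneic libraries and 889, 1047 and 1160 in WT allogeneic libraries. The groups did not overlap, and its log2 fold change was 2.56 (95% interval 2.37 to 2.75, edgeR adjusted p = 2.81e-17), where 28.9% of all entries tested were called. The reading cannot be split between the α and the β chain.

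Ms4a1, the CD20 gene, had 384, 278 and 230 counts in PERK-cKO allogeneic libraries and 82, 98 and 130 in WT allogeneic libraries. Again no library of one group reached the other. The levels were 148 ± 14.4 and 59.3 ± 8.70 CPM (SD, n = 3 each), a log2 fold change of 1.32 (95% interval 1.03 to 1.61, edgeR adjusted p = 7.59e-08).

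Blk showed the smallest difference of the measured genes. Its counts were 134, 132 and 86 in PERK-cKO and 65, 55 and 94 in WT allogeneic libraries. The counts overlapped, whereas the scaled levels did not (52.5 to 66.5 against 32.4 to 49.7 CPM). Its log2 fold change was 0.52 (95% interval 0.14 to 0.90, edgeR adjusted p = 0.0303). The call was lost with DESeq2 (adjusted p = 0.057), without PERK-cKO allogeneic replicate 1 or 2 (0.54 and 0.45, edgeR adjusted p = 0.0528 and 0.105) and without WT allogeneic replicate 1 or 2 (0.51 and 0.37, edgeR adjusted p = 0.0596 and 0.161).

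**Figure D1:**
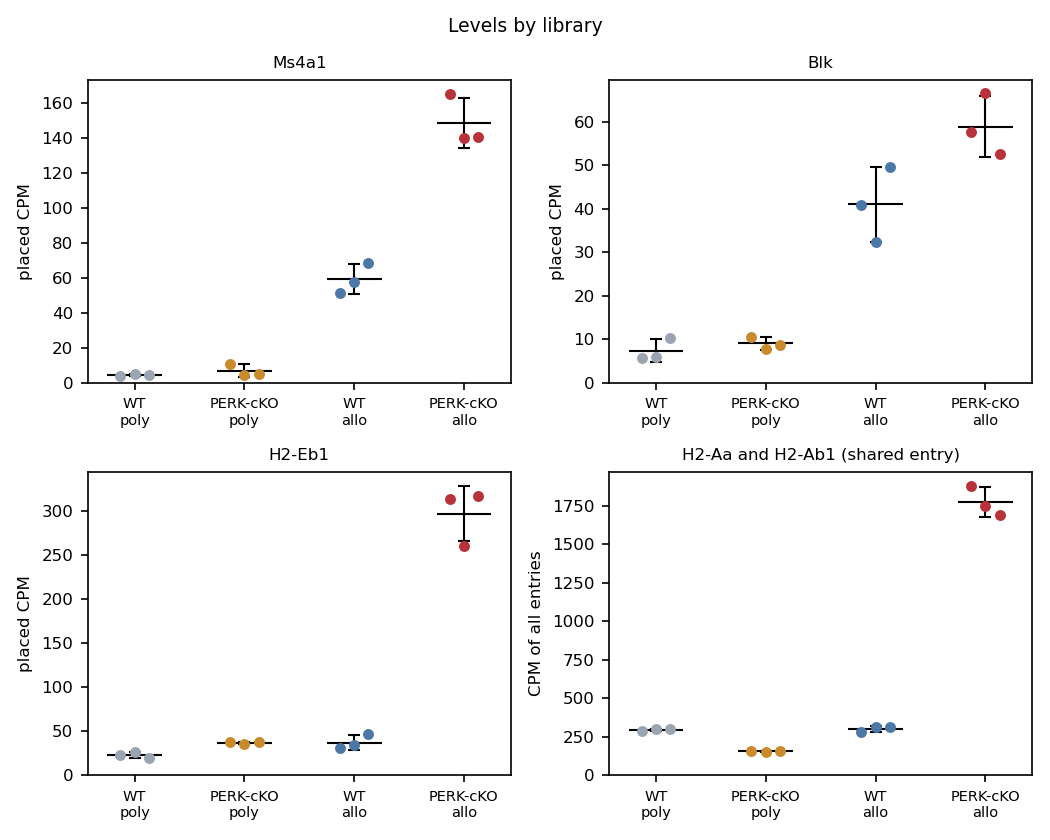
Levels of Ms4a1, Blk and H2-Eb1 in placed CPM, and of the entry shared by H2-Aa and H2-Ab1 in CPM of all entries, by group. Points are libraries, horizontal lines are means and error bars are SD (n = 3 per group), on axes that start at 0. H2-Eb1 and the shared entry were high in the PERK-cKO allogeneic libraries, while Ms4a1 and Blk were high in both allogeneic groups.

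The readings that Cd79a and Cd79b share with other genes did not move as the measured genes did. The Cd79a and Arhgef1 entry had 1551, 1374 and 1221 counts in PERK-cKO and 1629, 1550 and 1518 in WT allogeneic libraries. Its log2 fold change was -0.36 (95% interval -0.55 to -0.16, edgeR adjusted p = 0.00511). The entry that Cd79b shares with 4 other genes had a log2 fold change of 0.29 (95% interval 0.03 to 0.56) and was not called (edgeR adjusted p = 0.0968). The part of Cd79a or Cd79b in either value is not known.

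The genes that load and control class II molecules gave a wider view of the same comparison. Of the 23 genes on this list, 10 had placed counts and 10 were tested, and 8 were called, 7 of them higher in PERK-cKO, beside 33.0% of all genes tested. One of the 7, H2-Eb2, passed the filter on low counts only through the libraries where it was high. The 5 with the largest changes were Ctsl, H2-Eb2, H2-DMb1, Ctss and H2-DMb2.

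The chains of H2-DM, which swaps the invariant chain's remnant for peptide, were among them. H2-DMb1 was at 86.8 ± 7.81 CPM in PERK-cKO and 20.6 ± 7.30 CPM in WT allogeneic libraries (SD, n = 3 each), a log2 fold change of 2.09 (edgeR adjusted p = 2.34e-08). H2-DMb2 was at 318 ± 8.27 and 139.8 ± 3.38 CPM, with a log2 fold change of 1.19. These near-identical β chains can share reads, so the value of each is uncertain. H2-DMa, the α chain, rose by 0.82 on the log2 scale. H2-Ob, a chain of H2-DO that holds H2-DM back in B cells, was at 67.7 ± 6.93 and 45.2 ± 5.03 CPM, a log2 fold change of 0.59 (edgeR adjusted p = 0.00703).

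The proteases that trim the invariant chain were higher as well. Ctss, the cathepsin used by B cells and dendritic cells, was at 707 ± 39.2 CPM in PERK-cKO and 194 ± 13.6 CPM in WT allogeneic libraries, a log2 fold change of 1.86. Ctsl had 130 to 236 counts against 18 to 32, a log2 fold change of 2.87 (edgeR adjusted p = 9.14e-11). H2-Eb2, a further E β chain gene, had 40 to 50 counts against 4 to 10, a log2 fold change of 2.52. The similarity of H2-Eb2 to H2-Eb1 leaves reads of the pair open to exchange.

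Of the measured factors that drive class II genes, none was called higher. Rfxap, a subunit of the RFX complex that binds the same control region, fell by 0.40 on the log2 scale (edgeR adjusted p = 0.0161), from 128 ± 3.84 to 96.5 ± 7.10 CPM. Under scaling to T cell markers it was no longer called. Nfya and Nfyc, subunits of NF-Y, had log2 fold changes of -0.43 and -0.58 and were not called (edgeR adjusted p = 0.12 and 0.343). Ciita, the master regulator of the genes, had no placed counts.

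H2-Ea-ps, the annotated remnant of the E α chain gene in the B6 genome, was read only in an entry shared with H2-Eb2 and Btnl2. The entry had 83, 80 and 63 counts in PERK-cKO and 16, 23 and 34 in WT allogeneic libraries. In polyclonal libraries it had 1, 1 and 1 counts in PERK-cKO and 1, 2 and 0 in WT. It was thus near 0 in all 6 polyclonal libraries and present in all 6 allogeneic libraries. The allogeneic genotype difference was 1.46 on the log2 scale (95% interval 0.95 to 1.97, edgeR adjusted p = 4.4e-05).

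**Figure D2:**
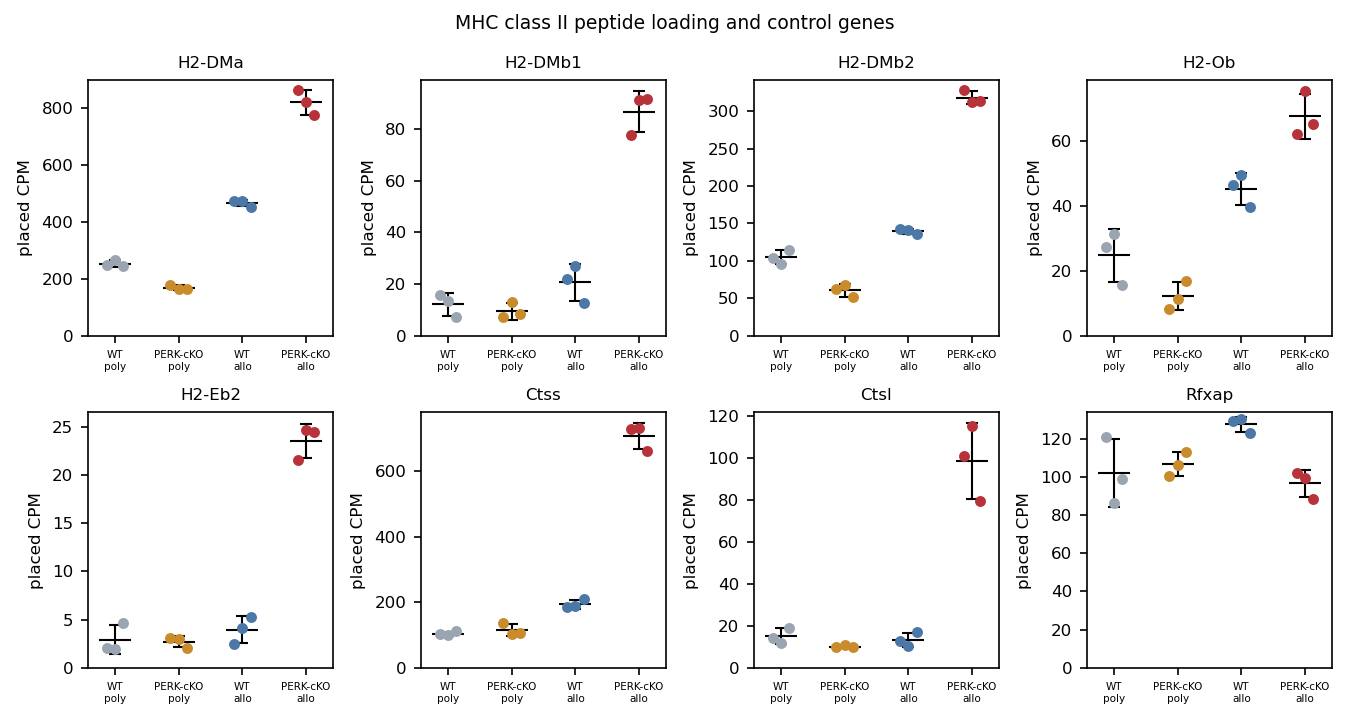
Levels in placed CPM of 8 of the 10 measured genes for class II peptide loading and control, by group. Points are libraries, lines are means and error bars are SD (n = 3 per group), on axes that start at 0. H2-DMa, H2-DMb1, H2-DMb2, H2-Ob, H2-Eb2, Ctss and Ctsl were highest in the PERK-cKO allogeneic libraries, and Rfxap was not.

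Other genes of B cells gave a mixed picture in the allogeneic comparison. Of 24 genes of the B cell receptor and its coreceptors, 4 could be tested. Pik3ap1, an adaptor that links the receptor to PI3K, rose by 2.35 on the log2 scale (edgeR adjusted p = 1.87e-07). Ptpn6, a phosphatase that T cells also use, fell by 1.39 (edgeR adjusted p = 0.0407), and this call was lost under scaling to T cell markers (edgeR adjusted p = 0.0722). It passed the filter on low counts only through the WT libraries, where it was high.

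Of 26 genes of B cell identity 4 were tested and 3 were called, all higher in PERK-cKO, beside 33.0% of all genes tested. Cd24a, a surface protein of B cells and of other leukocytes, had a log2 fold change of 1.92, with 1036 to 1408 counts against 253 to 336. Tnfrsf13c, the BAFF receptor, had a log2 fold change of 0.81 (edgeR adjusted p = 0.00828). Bcl11a, a transcription factor of B cells and plasmacytoid dendritic cells, had 17 to 26 counts against 1 to 11, and passed the filter on low counts only through the libraries where it was high. Scd1, a lipid enzyme, was not called (log2 fold change -0.24, edgeR adjusted p = 0.09).

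Markers of other APCs moved with these genes in the same libraries. The 5 macrophage and monocyte markers with placed counts (of 20) summed to 1403 to 1587 CPM in PERK-cKO and 114 to 144 CPM in WT allogeneic libraries. In polyclonal libraries they summed to 8.42 to 12.5 CPM. Lyz2, the lysozyme of macrophages, had 1643 to 2106 counts in PERK-cKO allogeneic libraries, 77 to 108 in WT allogeneic libraries and 0 to 2 in polyclonal libraries. C1qc and Trem2 were at 0 in every WT polyclonal library, and Trem2 and Mrc1 in every PERK-cKO polyclonal library. Macrophages carry class II molecules too, and the part of these cells in the class II differences was not tested.

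Dendritic cell markers were also higher. The 8 with placed counts (of 20) summed to 1538 to 1643 CPM in PERK-cKO and 839 to 967 CPM in WT allogeneic libraries, most of it from Irf8 and Ccl22, which activated T cells can also express. Itgax, the CD11c integrin, had 81 to 95 counts against 0 to 6. Cd86, a costimulatory ligand on APCs, had 95 to 123 against 27 to 35 (log2 fold change 1.63). Flt3 had at most 3 counts in any library, and Tcf4 had counts only in PERK-cKO allogeneic libraries (1 to 7). The part of dendritic cells in the class II differences was not tested.

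T cell markers were read in the same libraries. The 8 with placed counts (of 21) summed to 6039 to 6635 CPM in PERK-cKO and 6988 to 7069 CPM in WT allogeneic libraries, and 4 of 6 tested were called, all lower, beside 33.0% of all genes tested. Cd5 fell by 0.80 and Lck by 0.52 on the log2 scale, while Thy1 differed by 0.05 and was not called. The shared entry of Cd3d and Cd3g had 1943 to 3003 counts against 3231 to 4106. Thy1 had at least 4008 counts in every library, so T cell transcripts were present in all 12. Scaling to T cell markers kept the calls of all 3 measured genes in this comparison, while it moved the share of higher genes among all genes called from 56.1% to 75.1%, and the median of all genes from -0.02 to 0.13.

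**Figure D3:**
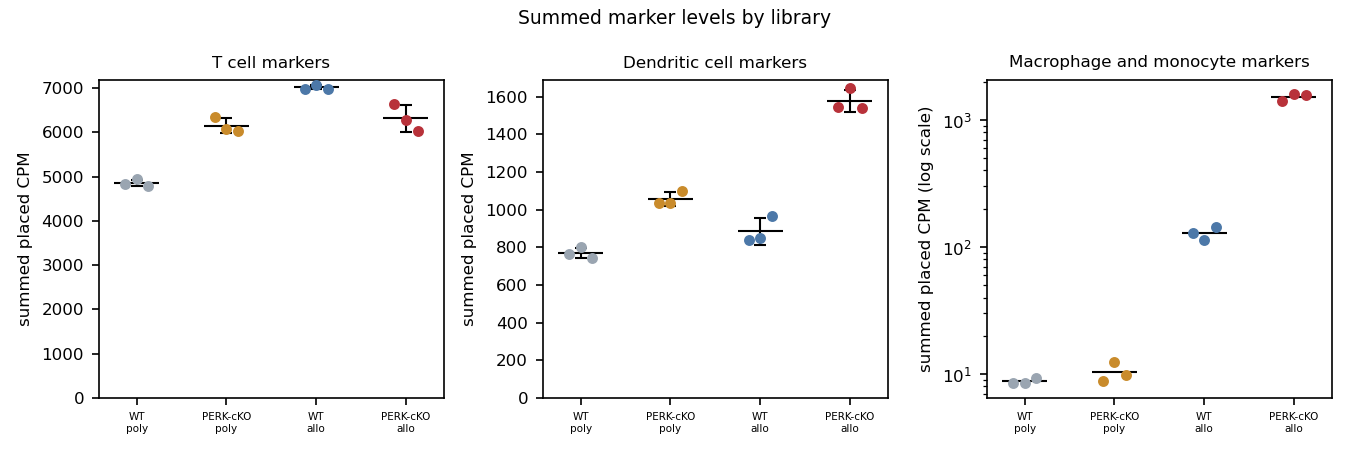
Summed levels of T cell, dendritic cell and macrophage and monocyte markers in placed CPM by group, the last on a log axis. Points are libraries and lines are means, with SD as error bars on the linear axes (n = 3 per group). Macrophage and monocyte markers summed to 1403 to 1587 CPM in PERK-cKO allogeneic libraries and to at most 12.5 CPM in polyclonal libraries.

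Of 20 genes of the class I pathway, which every nucleated cell uses, 8 were tested and 5 were called, all higher in PERK-cKO, beside 33.0% of all genes tested. The median log2 fold change of the 8 was 0.37, beside -0.02 over all genes tested. H2-Q7, H2-Q4 and H2-K1 had log2 fold changes of 1.24, 0.81 and 0.69. These genes are near-identical in part and can exchange reads. Nlrc5, the class I counterpart of Ciita, had a log2 fold change of 0.49, and Tap2, a peptide transporter, one of 0.24.

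After polyclonal stimulation, where no APCs were added, neither B cell gene was called between genotypes, and the class II readings differed in opposite directions. Of the 3 measured genes H2-Eb1 alone was called, beside 31.8% of all genes tested. The joint H2-Aa and H2-Ab1 entry was called lower in PERK-cKO, where 29.5% of all entries were called.

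H2-Eb1 had 85, 59 and 73 counts in PERK-cKO and 43, 52 and 37 in WT polyclonal libraries. The groups did not overlap, at 36.7 ± 1.31 against 22.6 ± 3.35 CPM (SD, n = 3 each). The log2 fold change was 0.68 (95% interval 0.27 to 1.10, edgeR adjusted p = 0.0136). The call was lost without WT polyclonal replicate 3 (0.58, edgeR adjusted p = 0.056) and under scaling to T cell markers (0.36, edgeR adjusted p = 0.15).

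The joint H2-Aa and H2-Ab1 entry went the other way. It had 721, 504 and 595 counts in PERK-cKO and 1071, 1170 and 1096 in WT polyclonal libraries. All 3 PERK-cKO libraries lay below all 3 WT libraries, and the entry fell by 0.91 on the log2 scale (95% interval of the log2 fold change -1.07 to -0.75, edgeR adjusted p = 3.41e-07). The Cd79a and Arhgef1 entry fell by 0.33 (edgeR adjusted p = 0.0074), and the entry with Cd79b differed by 0.04 and was not called (edgeR adjusted p = 0.825).

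Ms4a1 was scarce in these libraries. It had 25, 7 and 10 counts in PERK-cKO and 7, 10 and 9 in WT polyclonal libraries, where replicate 1 of PERK-cKO stood above the rest. Its log2 fold change was 0.63 (95% interval -0.31 to 1.56, edgeR adjusted p = 0.305), and 0.04 without that library. Blk had 24, 13 and 17 counts against 11, 12 and 20, which overlapped. Its log2 fold change was 0.28 (95% interval -0.47 to 1.04, edgeR adjusted p = 0.589). These intervals leave room for differences of either sign, so at this depth no difference was detectable in either gene.

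Of 9 loading genes tested in the polyclonal comparison 3 were called, beside 31.8% of all genes tested. All 3 were lower in PERK-cKO: H2-Ob (log2 fold change -1.05), H2-DMb2 (-0.81) and H2-DMa (-0.60). H2-DMa went from 253 ± 12.6 CPM in WT to 169 ± 8.69 CPM in PERK-cKO libraries (SD, n = 3 each). Ctss and Ctsl were not called, with log2 fold changes of 0.15 and -0.58, though Ctsl was called lower under scaling to T cell markers (-0.91). Nfyc was not called (1.15, edgeR adjusted p = 0.0685) but was called higher under library size only (1.20, edgeR adjusted p = 0.0416), and passed the filter only through the PERK-cKO libraries.

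Of the B cell lists, Pik3ap1 fell by 1.48 and Cd24a by 2.31 on the log2 scale after polyclonal stimulation. Both genes were thus lower in PERK-cKO here and higher in PERK-cKO after allogeneic stimulation. Cd24a had 65 to 130 counts in PERK-cKO and 360 to 482 in WT polyclonal libraries. Scd1 rose by 0.27, a call that was lost under library size only (0.32) and under scaling to T cell markers, where it turned to -0.06. The median log2 fold changes were -0.25 over 4 genes of the B cell receptor list and 0.16 over 3 genes of B cell identity.

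Among dendritic cell markers 3 were tested and called higher in PERK-cKO, beside 31.8% of all genes called in either direction. They were Klrd1 (log2 fold change 2.51), which cytotoxic T cells also express, Ccl22 (0.53) and Irf8 (0.40), of which Klrd1 alone kept its call under scaling to T cell markers. Klrd1 passed the filter on low counts only through the PERK-cKO libraries, where it was high. Of the class I genes tested 4 of 8 were called, beside the same 31.8%, 3 higher (Erap1 at 0.61, Nlrc5 at 0.40 and Tap2 at 0.36) and 1 lower (H2-Q4 at -0.34). Of the T cell markers tested 4 of 8 were called, again beside 31.8%. Thy1, Lck and Cd8b1 were higher (0.64, 0.26 and 1.63) and Cd5 lower (-0.58), where Lck turned to -0.07 under scaling to T cell markers and Cd8b1 passed the filter only through the PERK-cKO libraries. Scaling to T cell markers shifted the median of all genes from 0.00 to -0.32 and the share of higher genes among those called from 50.3% to 10.1%.

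Between the stimuli, Ms4a1 and Blk were far higher after allogeneic stimulation in both genotypes. In WT libraries the 3 measured genes were all called, beside 48.6% of all genes tested, and Ms4a1 was 12.9-fold and Blk 5.41-fold higher. The stimuli also differ in days and in the added APCs, and in WT libraries in the Y-linked genes, which cannot be told apart here.

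In WT libraries Ms4a1 went from 4.45 ± 0.681 to 59.3 ± 8.70 CPM (SD, n = 3 each), a log2 fold change of 3.69 (95% interval 3.15 to 4.23, edgeR adjusted p = 8.12e-08). Blk went from 7.39 ± 2.61 to 41.0 ± 8.66 CPM, a log2 fold change of 2.44 (95% interval 1.82 to 3.05, edgeR adjusted p = 1.33e-05). No allogeneic library overlapped a polyclonal one for either gene.

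In WT libraries H2-Eb1 was called higher after allogeneic stimulation and the I-A reading was not called. H2-Eb1 went from 22.6 ± 3.35 to 36.8 ± 8.63 CPM, a log2 fold change of 0.68 (95% interval 0.20 to 1.16, edgeR adjusted p = 0.0224). Its raw counts overlapped (37 to 52 against 48 to 88). The call was lost without WT polyclonal replicate 3 (0.57), without WT allogeneic replicate 3 (0.46) and under scaling to T cell markers (0.18), with edgeR adjusted p from 0.072 to 0.497. The joint H2-Aa and H2-Ab1 entry had a log2 fold change of 0.04 (95% interval -0.13 to 0.21, edgeR adjusted p = 0.739), where 46.6% of all entries were called. Under scaling to T cell markers this entry was called lower after allogeneic stimulation (-0.47, edgeR adjusted p = 8.1e-05).

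Further class II entries held few counts in WT libraries. The entry of H2-Eb2, Btnl2 and H2-Ea-ps had 0 to 2 counts in polyclonal and 16 to 34 in allogeneic WT libraries and was called (edgeR adjusted p = 1.15e-05), having passed the filter only through the allogeneic libraries. The second H2-Eb1 entry had 2 to 4 against 6 to 12 counts, too few to pass the filter in this comparison.

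Of 9 loading genes tested in WT libraries, 5 were called, beside 48.6% of all genes tested. All 5 were higher after allogeneic stimulation: Ctss (log2 fold change 0.87), H2-DMa (0.85), H2-Ob (0.83), H2-DMb2 (0.38) and Nfyc (1.49). Nfyc passed the filter on low counts only through the allogeneic libraries, where it was high. Under scaling to T cell markers 2 of them (Ctss and H2-DMa) kept their calls and H2-DMb2 turned to -0.12. That scaling also moved the median of all genes to -0.51 and the share of higher genes among those called from 50.3% to 13.8%. Pik3ap1 fell by 2.53, Vav2 by 0.72 and Cd24a by 0.39 on the log2 scale. Macrophage markers summed to 114 to 144 CPM in WT allogeneic and 8.42 to 9.36 CPM in WT polyclonal libraries.

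In PERK-cKO libraries Ms4a1, Blk, H2-Eb1 and the I-A reading were all higher after allogeneic than after polyclonal stimulation. The 3 measured genes were all called, beside 51.4% of all genes tested. Ms4a1 was 20.8-fold, H2-Eb1 8.05-fold and Blk 6.41-fold higher, with log2 fold changes of 4.38, 3.01 and 2.68. Their edgeR adjusted p-values were 1.2e-11, 9.91e-13 and 1.26e-08. The joint H2-Aa and H2-Ab1 entry was 11.5-fold higher (log2 fold change 3.52, 95% interval 3.33 to 3.71, edgeR adjusted p = 2.7e-17), where 46.2% of all entries were called.

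Of the loading genes 7 of 10 were called in that comparison, all higher, beside 51.4% of all genes tested. The largest were Ctsl (3.27), H2-DMb1 (3.22), H2-Eb2 (3.08), Ctss (2.60) and H2-Ob (2.47), of which H2-Eb2 passed the filter only through the allogeneic libraries. Of the B cell lists Cd24a (3.85), Pik3ap1 (1.31) and Tnfrsf13c (0.65) rose, and Scd1 fell by 0.62. Bcl11a had 17 to 26 counts after allogeneic and 0 to 1 after polyclonal stimulation. Of 5 dendritic cell markers tested, 3 were called higher (Itgax at 4.42, Cd86 at 4.15 and Ccl22 at 2.48) and 1 lower (Irf8 at -0.46), beside the same 51.4%. Itgax and Cd86 passed the filter only through the allogeneic libraries, where they were high. Macrophage markers summed to 1403 to 1587 CPM after allogeneic and 8.81 to 12.5 CPM after polyclonal stimulation in these PERK-cKO libraries.

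The order of the groups differed between the B cell and the class II genes. For Ms4a1 and Blk both polyclonal groups were low and overlapped, WT allogeneic was above them and PERK-cKO allogeneic was highest. For H2-Eb1 WT polyclonal was lowest. PERK-cKO polyclonal (35.2 to 37.5 CPM) lay within the range of WT allogeneic (30.2 to 46.5 CPM), and PERK-cKO allogeneic (261 to 317 CPM) was far above. For the joint H2-Aa and H2-Ab1 entry PERK-cKO polyclonal was lowest, the WT groups overlapped, and PERK-cKO allogeneic was highest.

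The interaction of genotype and stimulation compares the genotype difference after allogeneic stimulation with that after polyclonal stimulation. It includes the WT allogeneic libraries, so the stimulus and their Y-linked difference cannot be told apart in it. It was called for 1 of the 3 measured genes, H2-Eb1, beside 33.9% of all genes tested. The H2-Eb1 difference was larger after allogeneic than after polyclonal stimulation by 2.30 on the log2 scale (95% interval 1.81 to 2.79, edgeR adjusted p = 1.15e-07). For the joint H2-Aa and H2-Ab1 entry it was larger by 3.50 (95% interval 3.26 to 3.73, edgeR adjusted p = 2.42e-17), where 29.0% of all entries were called.

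For Ms4a1 and Blk the interaction was 0.66 (95% interval -0.23 to 1.55, edgeR adjusted p = 0.251) and 0.21 (95% interval -0.58 to 1.01, edgeR adjusted p = 0.713). Neither was called. The Ms4a1 interaction was called without PERK-cKO polyclonal replicate 1 (1.24, edgeR adjusted p = 0.0305) and under scaling to T cell markers (1.15, edgeR adjusted p = 0.0324).

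Of the loading genes 8 of 10 had a called interaction, 7 positive and 1 negative, beside 33.9% of all genes tested. The 5 largest were Ctsl (3.44), H2-Eb2 (2.62), H2-DMb1 (2.48), H2-DMb2 (1.98) and Ctss (1.70), of which H2-Eb2 did not pass the filter on low counts within each group by itself. The negative one was Rfxap (-0.46), which was called with TMM alone among the 4 scalings and was at 0.03 under scaling to T cell markers. Nfyc (-1.75) was not called (edgeR adjusted p = 0.0557) except under library size only (edgeR adjusted p = 0.0445). Of the B cell lists Cd24a (4.21) and Pik3ap1 (3.82) had positive interactions and Scd1 a negative one (-0.52), which was at -0.03 and not called under scaling to T cell markers. Among all genes called, scaling to T cell markers moved the share of positive interactions from 49.2% to 89.5%, and the median of all genes from 0.01 to 0.50.

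**Figure D4:**
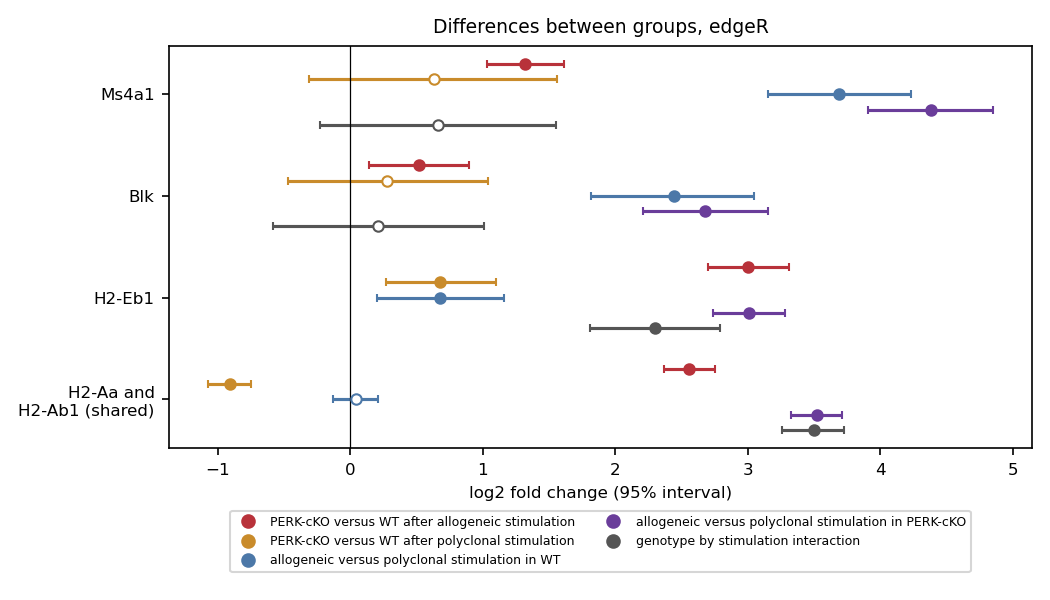
Log2 fold changes with 95% intervals from edgeR for Ms4a1, Blk, H2-Eb1 and the entry shared by H2-Aa and H2-Ab1, by comparison. Filled circles were called at an adjusted p under 0.05 and open circles were not. The genotype difference after polyclonal stimulation was 0.68 for H2-Eb1 and -0.91 for the shared entry.

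The genes whose levels followed each pattern most closely were ranked by Pearson r of log2 CPM over the 12 libraries, among 3802 genes with an average log2 CPM of at least 3. The libraries share 4 groups, so r mostly follows the group means and is given as a description. For H2-Eb1, the one class II gene measured alone, they were Mgl2 (r = 0.987), Scimp (0.986), Grn (0.985), Unc93b1 (0.984), Cd300a (0.98) and Cd36 (0.98). Mgl2, a lectin of macrophages and dendritic cells, had 420 to 706 counts in PERK-cKO allogeneic libraries and 4 to 22 in the others. Unc93b1 carries endosomal Toll-like receptors, and Cd36 is a scavenger receptor.

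For the mean of Ms4a1 and Blk they were Irgm2 and Gm43197 (r = 0.983 each), Ccr2 and Cyp4f18 (0.982 each) and Anxa5 (0.978). Ccr2, a chemokine receptor of monocytes and activated T cells, was at 536 ± 39.6 CPM in PERK-cKO and 157 ± 17.8 CPM in WT allogeneic libraries (SD, n = 3 each). It was at 22.5 ± 8.78 and 24.1 ± 8.21 CPM in the polyclonal libraries.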

How the data were processed

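Bulk RNA-Seq counts of spleen T cells in 12 libraries were analysed. The authors deposited raw counts, which featureCounts 2.0.1 had made for read pairs on exons of GENCODE M27 (GRCm39). The labels name mm10, and the aligner is not given in the sources used here. Of 53762 entries, 13386 overlay the exons of exactly 1 GRCm38 gene (GENCODE M21, small RNAs aside) by at least 50 bp and were summed by gene, which kept 50.4% of counts. Shared entries were tested among all entries as listed.

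Placed counts were filtered by filterByExpr, scaled by TMM and tested with edgeR 4.0.16 (glmQLFit and glmQLFTest at their defaults, R 4.3.3), in 6 libraries per comparison and in 12 for the interaction. The robust setting of glmQLFit was tried after the data had been seen, and is given as an alternative only. In the allogeneic comparison it called 1384 placed genes and 2810 entries, against 1352 and 2734 at the defaults. The fits were tested on simulated data. Same-numbered libraries did not deviate together (r from -0.1 to 0.1), and no pair of replicates agreed within counting noise.

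The 8 genes and the gene lists were chosen with earlier results of these data known. From each list, up to 5 called genes with the largest changes per comparison were to be named. Other listed genes are named to complete a group and were chosen after their values were seen. The genes most like each pattern were taken from the 6 of highest r. Some genes that these rules select are not reported here.

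Results were also recomputed with DESeq2 1.42.0, other scalings (RLE factors, unadjusted library size, the summed T cell markers), other filters on low counts, all 12 libraries in one fit, a replicate block, leaving out each library, stricter placement (entries mostly inside exons, or over at least 200 bp), entries as listed, and a log2 fold change beyond 1.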

Additional observations from a re-analysis of the deposited data

Results flagged for a closer look

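The interaction of genotype and stimulation over 12 libraries was called in 2 of the readings. It includes the WT allogeneic libraries, so the stimulus and their Y-linked difference cannot be told apart in it. For H2-Eb1 the log2 difference between PERK-cKO and WT was larger by 2.30 after allogeneic than after polyclonal stimulation (3.00 against 0.68). For the entry shared by H2-Aa and H2-Ab1 it was larger by 3.50 (2.56 against -0.91). The summed macrophage and monocyte markers were 1403 to 1587 CPM in PERK-cKO allogeneic libraries and at most 144 CPM in all others, and their part in these differences was not tested.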

How the results depend on the processing

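Of 331 log2 fold changes recomputed for the 3 measured genes and the shared H2-Aa and H2-Ab1 entry, 314 kept their direction and side of the threshold, 11 lost and 2 gained a call, and 4 reversed. The 4 were Blk after polyclonal stimulation (-0.04, scaled to T cell markers), the Blk interaction (-0.11, without WT polyclonal replicate 3) and the shared entry between stimuli in WT (-0.01 by library size only and -0.47 scaled to T cell markers). Under scaling to T cell markers, 0 of the 3 genes were called between genotypes after polyclonal stimulation and 2 for the interaction. With a log2 fold change beyond 1 as well, 0 were called after polyclonal stimulation. Stricter placement left fewer genes to test, and H2-Eb1 had no value under either form of it. With entries mostly inside exons 1 gene could be tested (Ms4a1), and 1, 0, 1, 1 and 0 were called for the allogeneic, polyclonal, WT, PERK-cKO and interaction comparisons. With 200 bp, 0 of 1 was called after polyclonal stimulation and 0 of 2 for the interaction. With entries as listed, which lie elsewhere, 0 were called in all 5 comparisons, and H2-Eb1 had an interaction of 0.50. Leaving out 1 library, the genes called were 2 to 3 (allogeneic), 0 to 1 (polyclonal), 2 to 3 (WT), 3 to 3 (PERK-cKO) and 1 to 2 (interaction), and the Blk interaction ranged from -0.11 to 0.39. The replicate block changed no call of these genes, with 3, 1, 3, 3 and 1 called. The robust setting, chosen after seeing the data, changed none either, but lowered the adjusted p of Blk after allogeneic stimulation from 0.0303 to 0.0248 in edgeR. Apart from fewer genes or libraries, the causes were not tested. Depth limits Ms4a1 and Blk in polyclonal libraries, where counts were 7 to 25.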
